A study of Rattus norvegicus with 24 samples.

Results

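Low-ratio transcripts are described here: 96 rat transcripts that gave plenty of RNA-seq counts but few ribosome footprints in both liver and brain of young animals. RNA-seq and ribosome profiling had been carried out on liver and brain of 3 old rats aged 24 months and 3 young rats aged 6 months, 8 groups of 3 libraries and 24 libraries in all. Each animal gave 4 libraries, and the labels used here give neither strain nor sex. Levels were expressed as CPM, the count of a transcript times 1000000 over the sum of its library. The transcripts were selected on their young footprint and RNA-seq values: a transcript was taken when its mean over the 3 young animals was at least 20 CPM in RNA-seq in both organs, and when its mean footprint CPM was at most 0.2 times its mean RNA-seq CPM in both organs. A second column of the deposited files, which resembles a length but is nowhere defined, had to lie above 80 and below 2000. Of 22938 transcripts, 3727 reached 20 CPM in both organs and 3503 of these lay in that range of the second column; the 3503 are called the comparable transcripts below. The ratio was at or under 0.2 for 225 of them in young liver and for 130 in young brain, and the 96 low in both organs made up 42.7% of the liver group and 73.8% of the brain group. A further 6 transcripts met both ratio limits with a second-column value outside the range and were left out.

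Ribosome profiling sequences the short pieces of mRNA that ribosomes shield from a nuclease, so the footprint count of a transcript over its RNA-seq count is read as its translational efficiency. A transcript can be plentiful and carry few ribosomes, for example when it is kept in the nucleus, held in untranslated particles, controlled by short reading frames upstream of the main one, or not a coding RNA at all. Which of these holds for any transcript here was not tested, and the files pair the identifiers with no gene names, so the transcripts are given by identifier and no functions are assigned. In a bulk tissue, fewer cells of a type and less RNA per cell cannot be told apart.

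Footprint libraries held 5259326 to 17584871 counts and RNA-seq libraries 14281043 to 28664906. The 50 transcripts that took the most counts among those at least 100-fold higher in young liver than in young brain RNA-seq were used to look for liver RNA in brain. In the brain of old animal 2 they stood at 5.92% of their young liver level in footprints and at 4.83% in RNA-seq, against at most 0.242% and 0.0707% in the other brain libraries. 0 of the 96 low-ratio transcripts were among these 50. The rule asked for at least 20 CPM in young brain RNA-seq, so hardly any of the 96 could have been.

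The low ratio held in old brain for most of the 96 transcripts and in old liver for fewer. In old brain 82 of 96 had a ratio at or under 0.2, in old liver 60, and in both old organs 54. Another 28 were above 0.2 in old liver alone, 6 in old brain alone and 8 in both. Among the comparable transcripts, the share at or under 0.2 was 2.43% in old liver (85 transcripts) and 6.42% in young liver (225), and it was 3.25% in old brain (114) and 3.71% in young brain (130). The median ratio of the 96 transcripts was 0.165 in old liver and 0.0915 in young liver, and it was 0.128 in old brain and 0.109 in young brain. The highest ratio any of them reached in old animals was 0.546 in liver and 0.316 in brain. The young values chose the transcripts and are given as a description.

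Counts per animal showed the same order of organs. At or under 0.2 were 57, 68 and 54 of the 96 transcripts in the livers of old animals 1, 2 and 3, and 75, 86 and 81 in their brains. In every old animal the ratio was at or under 0.2 for 45 transcripts in liver and 66 in brain, against 76 in liver and 74 in brain for every young animal. The median ratio of the 96 was 0.171, 0.154 and 0.176 in the old livers and 0.1, 0.0844 and 0.101 in the young livers, so the groups did not overlap. In brain the medians were 0.145, 0.108 and 0.129 in the old animals and 0.117, 0.104 and 0.105 in the young, and the groups overlapped. With the brain of old animal 2 left out, 75 of the 96 were at or under 0.2 in old brain.

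**Figure D1:**
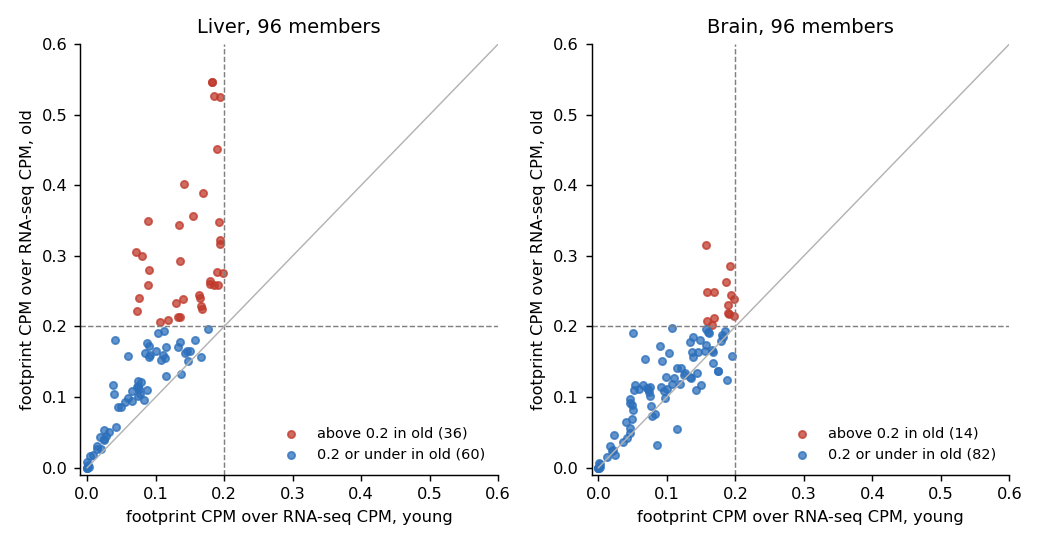
Footprint over RNA-seq ratio of each of the 96 low-ratio transcripts in old animals (vertical axis) and young animals (horizontal axis), each a ratio of means of 3 animals without units, in liver and brain; dashed lines mark 0.2 and the grey line equal ratios. Red points, 36 in liver and 14 in brain, exceeded 0.2 in old animals, and most points of the liver panel lie above the line of equal ratios.

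Setting these values beside all comparable transcripts shows how far down they lie. The median ratio of the comparable transcripts was 0.792 in old liver, 0.685 in young liver, 0.84 in old brain and 0.858 in young brain. The median of the 96 was therefore 20.8% of that level in old liver against 13.4% in young liver, and 15.2% in old brain against 12.7% in young brain. Within the 96, Spearman's rho between old and young ratios was 0.831 in liver and 0.868 in brain, across transcripts that share libraries and given as a description. Between the organs it was 0.589 in old and 0.672 in young animals.

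**Figure D2:**
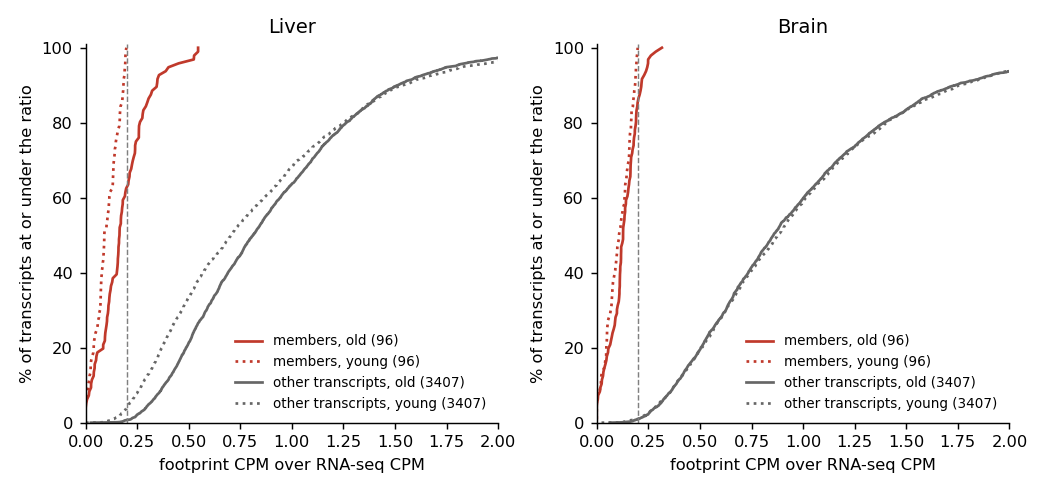
Cumulative share of transcripts (vertical axis, percent) at or under each footprint over RNA-seq ratio (horizontal axis, no units, drawn up to 2) for the 96 low-ratio transcripts in red and the other 3407 comparable transcripts in grey, with old animals as solid and young as dotted lines. The red old line passes the dashed mark at 0.2 with 60 transcripts in liver and 82 in brain, far to the left of both grey lines.

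Old libraries took no part in the choice, so the ratio could be tested in them. Footprints were lower than RNA-seq for 96 of 96 transcripts in old brain and for 94 of 96 in old liver (edgeR quasi-likelihood test with Benjamini-Hochberg adjustment over all transcripts tested), and none was higher in either organ. Among all 14387 transcripts tested in old brain 32.3% were lower and 32.6% higher, and among 12209 in old liver 22.4% were lower and 20.6% higher. The median log2 ratio of the 96 was -2.86 in old brain and -2.43 in old liver, against 0.01 and -0.01 over all transcripts tested. These fitted ratios are relative to the typical transcript of each library, since the scaling sets that one near equality. The value closest to 0 among the 96 was -1.59 in brain and -0.70 in liver. Required to be at least 2-fold, the fall passed for 95 transcripts in old brain, against 9.23% of all tested, and for 81 in old liver, against 4.46%. All 96 passed the filter on low counts, which they could do through RNA-seq alone; on old footprints alone 88 would have passed in brain and 86 in liver.

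The transcripts that missed the threshold in old liver were ENSRNOT00000043786 and ENSRNOT00000048487, which had identical counts in all libraries and are one measurement, named after their values were seen. ENSRNOT00000043786 had 6.35, 6.33 and 4.95 footprint CPM in the old livers and 3.89, 5.86 and 7.22 in the young, with 7.71, 13.8 and 10.8 RNA-seq CPM in the old livers and 17.6, 41.6 and 33.9 in the young. Its RNA-seq values did not overlap between the ages, its footprint values did, and its ratio was 0.546 in old liver against 0.182 in young liver. Its fitted log2 of footprints over RNA-seq in old liver, -0.70 ± 0.275 (SE derived from the F test, n = 3 animals), had an edgeR adjusted p of 0.0745. With the animal as a block it passed (edgeR adjusted p = 0.00391), while ENSRNOT00000033897 no longer did (edgeR adjusted p = 0.0136 without the block and 0.128 with it), which left 95 of 96 called, against 31.9% of all tested with that block.

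The lowest ratios belonged to transcripts without a single footprint. ENSRNOT00000022122, ENSRNOT00000048151 and ENSRNOT00000041959 had 0 footprint counts in all 12 ribosome profiling libraries. ENSRNOT00000022122 had 49.5, 56.6 and 50.9 RNA-seq CPM in old liver, 42.9, 39.9 and 46.9 in young liver, 117, 108 and 121 in old brain and 117, 122 and 121 in young brain. ENSRNOT00000048151 had 28.1, 23.2 and 25.9 RNA-seq CPM in old liver, 27.9, 20.8 and 29.1 in young liver, 93.6, 83 and 87 in old brain and 92.7, 97 and 92.5 in young brain. Both were thus read in every RNA-seq library, with more CPM in each brain than in any liver. A floor of 3 counts over the 3 footprint libraries of a group puts the footprints of ENSRNOT00000022122 at least 676-fold below its RNA-seq in old liver and at least 1147-fold below in old brain. For ENSRNOT00000048151 the bounds were at least 332-fold in old liver and at least 874-fold in old brain. These floors cover counting error only. In all 4 combinations of age and organ, 6 of the 96 transcripts had a ratio at or under 0.01 and 11 had one at or under 0.05.

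At the other end of the count scale stood ENSRNOT00000050156, the low-ratio transcript with the most RNA-seq counts. It took 2.03% of all RNA-seq counts in old liver, where it ranked 5 among all transcripts, and 3.15% in old brain, where it ranked 1. Its footprint level was 1943, 2176 and 3028 CPM in old livers against 1517, 752 and 920 CPM in young livers, and its RNA-seq level was 19476, 21231 and 20058 CPM in old livers against 31098, 26530 and 26222 CPM in young livers. In liver neither assay overlapped between the ages, RNA-seq being lower and footprints higher in old animals. In brain it had 1112, 1747 and 1106 footprint CPM in old animals and 1561, 939 and 1133 in young, with 33398, 30514 and 30572 RNA-seq CPM in old and 35097, 26406 and 25932 in young, and both assays overlapped. The ratio was 0.118 in old liver against 0.038 in young liver, and 0.042 in old brain against 0.0415 in young brain. The fitted log2 of footprints over RNA-seq was -2.94 ± 0.211 in old liver (SE, edgeR adjusted p = 9.01e-05) and -4.45 ± 0.281 in old brain (SE, edgeR adjusted p = 0.000213).

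Next by RNA-seq counts came ENSRNOT00000043693. Its liver footprints were at 238, 251 and 339 CPM in old livers against 179, 125 and 141 in young, and RNA-seq was at 2612, 2738 and 2607 CPM in old livers against 3866, 3616 and 3779 in young. Neither overlapped between the ages, with RNA-seq lower and footprints higher in old liver. In brain its footprints were 181, 389 and 245 CPM in old animals and 328, 235 and 277 in young, with 3880, 3546 and 3746 RNA-seq CPM in old and 4260, 3245 and 3119 in young, overlapping in both assays. Its ratio was 0.104 in old and 0.0395 in young liver, and 0.0729 in old and 0.079 in young brain.

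**Figure D3:**
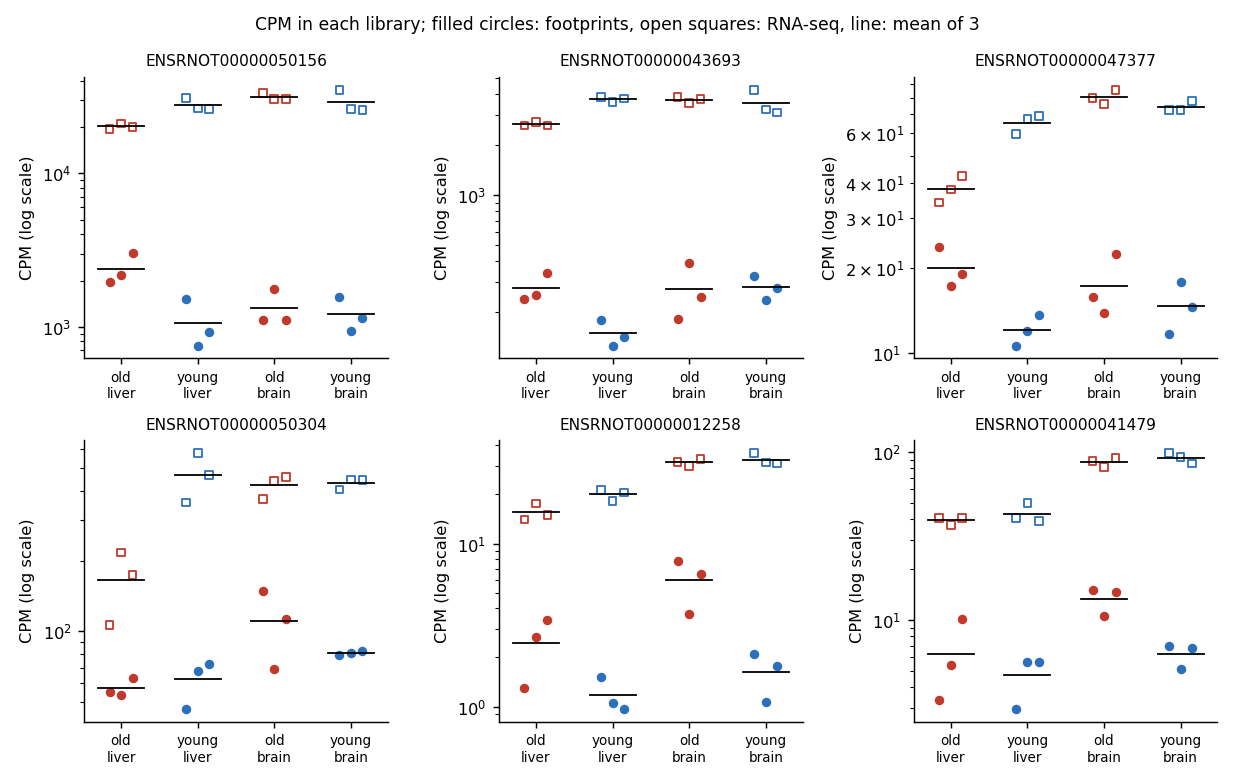
CPM on a log scale in every library for 6 low-ratio transcripts, footprints as filled circles and RNA-seq as open squares, old in red and young in blue, with lines at the mean of 3 animals. Circles lie below squares in every group shown; for ENSRNOT00000050156 they sit closer together in old liver (ratio 0.118) than in young liver (0.038), and for ENSRNOT00000012258 in old brain (0.19) than in young brain (0.0502).

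As a whole the 96 transcripts held 0.475% ± 0.099 of all footprint counts and 3.35% ± 0.22 of all RNA-seq counts in old liver, against 0.274% ± 0.0432 and 5.19% ± 0.0723 in young liver (SD, n = 3 each). In old brain they held 0.463% ± 0.0206 of footprint and 5.63% ± 0.154 of RNA-seq counts, against 0.405% ± 0.0622 and 5.41% ± 0.575 in young brain. In liver neither share overlapped between the ages: the 3 old footprint shares were 0.402%, 0.434% and 0.587% against 0.321%, 0.235% and 0.267% in young animals, and the old RNA-seq shares were 3.12%, 3.56% and 3.36% against 5.11% to 5.25% in young animals. Without ENSRNOT00000050156 the pattern was the same, with 0.236% ± 0.0421 of footprint and 1.32% ± 0.135 of RNA-seq counts in old liver against 0.168% ± 0.00754 and 2.39% ± 0.268 in young liver.

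The limit of 0.2 cuts through a continuous range. Just inside it lay ENSRNOT00000015034, with 0.275 in old liver, 0.198 in young liver, 0.158 in old brain and 0.195 in young brain. ENSRNOT00000061041, also just inside, had 0.317 in old liver, 0.194 in young liver, 0.239 in old brain and 0.198 in young brain. Just outside were ENSRNOT00000012263, with 0.223 in old liver, 0.201 in young liver, 0.152 in old brain and 0.126 in young brain, and ENSRNOT00000065140, with 0.305, 0.201, 0.201 and 0.139 in the same order. In old liver 15 of the 96 were at or under 0.05, 9 above that up to 0.1, 36 up to 0.2, 22 up to 0.3 and 14 higher. In old brain the same bins held 17, 12, 53, 13 and 1.

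By the geometric mean of the old liver and old brain ratios, ENSRNOT00000047377 and ENSRNOT00000050304 stood highest among the 96. ENSRNOT00000047377 had 23.7, 17.3 and 19.1 footprint CPM in old livers against 10.6, 12 and 13.6 in young livers, and 34.1, 37.9 and 42.3 RNA-seq CPM in old livers against 59.7, 67.2 and 69.2 in young. Neither overlapped between the ages, and its liver ratio was 0.526 in old and 0.185 in young animals. In brain its ratio was 0.216 in old and 0.198 in young animals, and its per-animal ratios of 0.198, 0.181 and 0.263 in old and 0.161, 0.246 and 0.187 in young overlapped. For ENSRNOT00000050304 the old livers had 54.9, 53.5 and 63 footprint CPM and the young livers 46.5, 67.5 and 72.8, while RNA-seq was at 106, 217 and 174 CPM in old livers and 356, 578 and 466 in young. Here the RNA-seq values alone kept the ages apart. Its ratio was 0.344 in old and 0.133 in young liver, and 0.262 in old and 0.187 in young brain. Both transcripts had fewer footprints than RNA-seq in old liver by the edgeR test, with a log2 of -0.75 ± 0.155 (SE, adjusted p = 0.00697) for ENSRNOT00000047377 and of -1.37 ± 0.254 (SE, adjusted p = 0.00425) for ENSRNOT00000050304. Without old animal 2 the first no longer passed, at a log2 of -0.64, nor did the second without old animal 3, at -1.44.

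In liver, the ratio was higher in old than in young animals for most of the 96 transcripts, and also for most of the comparable ones. RNA-seq was lower in old than in young liver for 83 of the 96 transcripts, with a median log2 of old over young of -0.29, against 2353 of the 3503 comparable transcripts and a median of -0.12. Footprints were higher in old liver for 81 of the 96 (median log2 0.39), against 2277 of the 3503 comparable transcripts (median log2 0.08). The ratio was higher in old liver for 90 of the 96 (median log2 0.72), against 2535 of the 3503 (median log2 0.18). Of the 36 transcripts above 0.2 in old liver, 35 had less RNA-seq in old liver, with a median log2 of -0.71, and 30 had more footprints, with a median log2 of 0.22. In RNA-seq, every old liver lay under every young one for 50 of the 96, against 17.9% of all transcripts tested, and in footprints every old liver lay over every young one for 13, against 13.5%. All these values share the young libraries that chose the transcripts and are a description.

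These differences depend on how libraries are scaled, and the values on the other scale for the same 96 transcripts were added after seeing the data. CPM puts the median liver ratio of the comparable transcripts at 0.792 in old and 0.685 in young animals, whereas CPM divided by TMM factors, which centre the typical transcript, puts it at 0.894 in old and 0.926 in young. On that scale the median of the 96 was 0.184 in old and 0.124 in young liver, and the ratio was higher in old liver for 82 of 96, RNA-seq lower for 77 and footprints higher for 65 and lower for 28. At or under 0.2 on that scale were 56 in old and 72 in young liver, and 79 in old and 91 in young brain. Choosing transcripts on that scale gave 70, of which 66 were among the 96, and 55 of the 70 were at or under the limit in old liver and 62 in old brain.

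**Figure D4:**
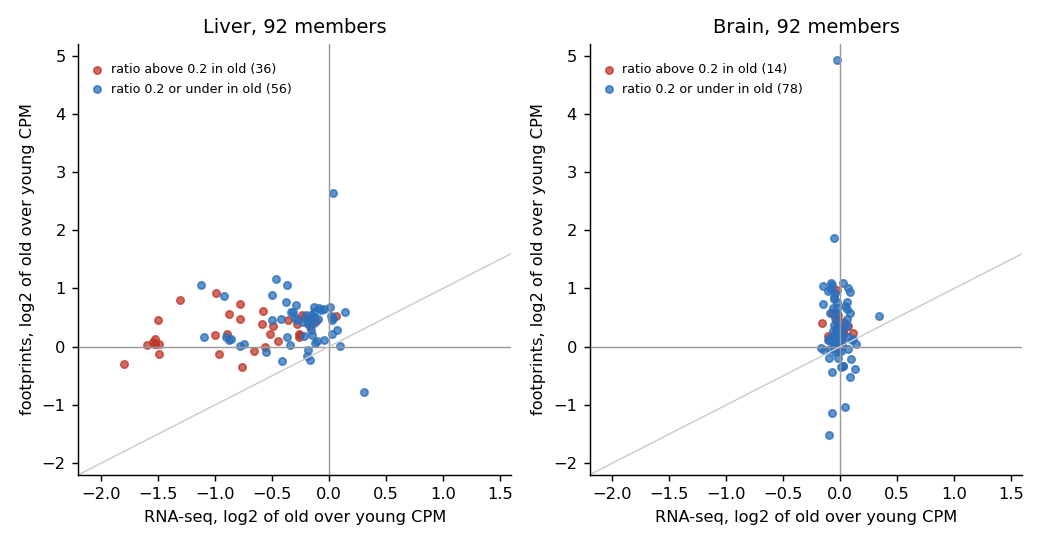
Log2 of old over young CPM in footprints (vertical axis) against RNA-seq (horizontal axis) for the 92 low-ratio transcripts with footprints in both ages of an organ; the diagonal marks an equal ratio in both ages, and red points exceeded 0.2 in old animals. Liver points spread to the left, with the red ones at a median of -0.71 in RNA-seq, whereas brain points keep near 0 on the horizontal axis.

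The same rule applied to the 12 old libraries took 57 transcripts. Of these 51 were among the 96, which is 89.5% of the 57 and 53.1% of the 96. RNA-seq of 10 of the 96 was under 20 CPM in old liver, and of 0 in old brain. With the choice made on old values, the liver ratio was higher in old than in young animals for 52 of the 57, with a median of 0.104 in old and 0.0659 in young liver. In brain it was higher in old animals for 39 of the 57, with a median of 0.0911 in old and 0.0713 in young brain. Among the 3503 comparable transcripts the ratio was higher in old animals for 2535 in liver and for 1678 in brain. The old values compared here chose the 57, and 51 of them had also been chosen on young values. The comparison is therefore a description.

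Tested transcript by transcript over all transcripts, the age differences of the liver were mostly not called. In the age by assay test, whether the ratio differs between ages, 0 of the 96 passed in liver by edgeR (0% of all 12462 tested were higher and 0% lower), with 30 higher and 0 lower at an unadjusted p under 0.05, where 1253 of all tested passed in either direction. DESeq2 called 15 of the 96 higher, and 99 higher and 25 lower over all transcripts. Neither fit had a term for the animal, although both assays came from the same animals. With the animal as a block 21 of the 96 were higher, against 2.66% of all tested, and 0 lower, against 4.08%. The 21 had log2 differences of 0.57 to 1.95, and 14 of the 21 were above 0.2 in old liver. In RNA-seq of liver 0 of the 96 were lower in old animals by edgeR and 0 higher (0% of all tested were lower and 0.0164% higher), with 37 lower and 2 higher at an unadjusted p under 0.05, where 2819 of all 12198 tested passed in either direction. DESeq2 called 30 of the 96 lower, and 629 lower and 454 higher over all transcripts. Without young animal 1 edgeR called 10 of the 96 lower, and 354 lower and 287 higher over all. In footprints of liver 88 of the 96 passed the filter and 0 were higher by edgeR (0.0176% of all tested), with 7 higher at an unadjusted p under 0.05, where 1390 of all 11396 tested passed in either direction. DESeq2 called 4 of the 96 higher, and 135 higher and 86 lower over all. Nothing is read from these counts, since the young libraries chose them.

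In old animals the organs differed, and where they did the ratio was mostly higher in liver than in brain. The difference was tested as the interaction of organ and assay over the 12 old libraries. It was higher in liver for 26 of the 96 (4.49% of all 14938 tested, edgeR adjusted p under 0.05) and lower for 1 (5.68%), and at an unadjusted p under 0.05, which 3532 of all tested passed in either direction, it was higher for 39 and lower for 5. The 26 had a median ratio of 0.27 in old liver and 0.113 in old brain, and a median log2 difference of 1.52. Above 0.2 were 17 of the 26 in old liver and 1 in old brain. RNA-seq of 23 of the 26 was lower in old than in young liver, against 83 of all 96 and 2353 of the 3503 comparable transcripts. It did not overlap for 16 of the 26, against 50 of all 96 and 17.9% of all transcripts tested. Of the 26, 21 also had a higher ratio in young liver than in young brain, with medians of 0.159 and 0.103. Over all 96 transcripts the liver ratio, by CPM, exceeded the brain ratio for 66 in old and 39 in young animals. By CPM the median of the comparable transcripts was 0.685 in young liver and 0.858 in young brain, against 0.792 and 0.84 in old animals. Whether the organ difference changes with age was not tested. The count rests on all 3 old animals: it was 7 when old animal 1 was left out, 13 when old animal 2 was and 13 when old animal 3 was. Each such fit has fewer animals and less power, and whether the drop is particular to the 96 was not tested. Lower ratios numbered 0 on leaving out old animal 1 and 2 on leaving out old animal 3.

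ENSRNOT00000042722 had the largest such difference among transcripts with footprints in both organs. It had 0.654, 1.27 and 1.82 footprint CPM in old livers, which are 7, 16 and 28 counts, and 1.14, 0.128 and 0.112 in old brains, which are 6, 2 and 1 counts, while its RNA-seq was 42.1, 38.4 and 40.5 CPM in old livers and 91.6, 84 and 90.2 in old brains. Its ratio was 0.0309 in old liver and 0.00519 in old brain. The old brain of animal 1, at 0.0125, came close to the liver of animal 1, at 0.0155, and the liver ratios lay above the brain ratios in all animals. The log2 difference was 3.18 ± 0.596 (SE, edgeR adjusted p = 0.00609), and without old animal 2 or old animal 3 it no longer passed, at 2.58 and 2.37. ENSRNOT00000037432 had 0, 2 and 3 footprint counts in old livers and 0 in every old brain, so no fold is given; its RNA-seq was 30.9, 38 and 36 CPM in old livers and 78.6, 85.8 and 77.1 in old brains. The one transcript lower in liver was ENSRNOT00000051951, with 0.467, 0.316 and 0.39 footprint CPM in old livers against 8.56, 5.31 and 11.7 in old brains, and 20.5, 31.3 and 21.3 RNA-seq CPM in old livers against 50.6, 71.2 and 59.7 in old brains. Its ratio was 0.016 in old liver and 0.141 in old brain without overlap, a log2 difference of -3.05 ± 0.534 (SE, edgeR adjusted p = 0.00412). Without old animal 1 the difference was -3.20 and did not pass.

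In brain, the ages differed more in footprints than in RNA-seq, by the medians of the 96 transcripts. RNA-seq was lower in old brain for 58 of the 96 transcripts, with a median log2 of -0.03, whereas footprints were higher for 71 with a median log2 of 0.23 and the ratio was higher for 74 with a median log2 of 0.25. The comparable transcripts had median log2 values of 0.00153 in RNA-seq, -0.00486 in footprints and -0.00939 in the ratio. Of these 3503, RNA-seq was lower in old brain for 1725, footprints were higher for 1703 and the ratio was higher for 1678. All 14 transcripts above 0.2 in old brain had more footprints in old than in young brain, with a median log2 of 0.35, and 8 of the 14 had less RNA-seq. The rule held their young ratio at or under 0.2, so more footprints or less RNA-seq in old brain was built in. The age differences of brain given here share the young libraries that chose the transcripts and are a description. Every old brain lay over every young brain in footprints for 14 of the 96, against 9.17% of all tested. In footprints of brain 4 of the 89 that passed the filter were higher in old animals by edgeR (0.789% of all tested); 2 of them are ENSRNOT00000012258 and ENSRNOT00000041479, given below. Leaving out any one of old animals 1 and 3 and young animals 2 and 3 brought that count to 0, and leaving out old animal 2 brought it to 8. In RNA-seq of brain 0 of the 96 were called by edgeR (0.315% of all tested were higher and 0.157% lower), with 1 higher and 6 lower at an unadjusted p under 0.05, where 1954 of all 13986 tested passed. DESeq2 called 1 of the 96 in each direction, and 188 higher and 111 lower over all.

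The ratio in brain was higher in old animals for 6 of the 96 transcripts by the edgeR age by assay test, against 0.075% of all 14664 tested, and lower for 0 (0.00682% of all tested). The log2 differences were 0.89 to 1.82 and the adjusted p 0.027 to 0.0447. As young libraries chose the transcripts, the count is a description. It was 0 on leaving out any one of old animals 1 and 3 and young animals 2 and 3, and it was 3 on leaving out old animal 2 and 1 on leaving out young animal 1. It was 2 with median-ratio factors and 0 with plain library totals. Fits with an animal left out have fewer animals and less power. ENSRNOT00000012258 had 7.8, 3.71 and 6.48 footprint CPM in old brains, which are 41, 58 and 58 counts, against 2.09, 1.06 and 1.77 in young brains, which are 27, 6 and 17 counts. Its RNA-seq was 31.6, 29.9 and 33 CPM in old brains against 35.8, 31.4 and 30.9 in young, so the ages were apart in footprints and overlapped in RNA-seq. The ratio was 0.19 in old and 0.0502 in young brain, a log2 difference of 1.82 ± 0.317 (SE, edgeR adjusted p = 0.0447). ENSRNOT00000041479 had 15, 10.6 and 14.6 footprint CPM in old brains against 7.04, 5.13 and 6.77 in young, and 88.2, 81.7 and 92.4 RNA-seq CPM in old brains against 98.2, 93 and 85.6 in young. Again footprints kept the ages apart and RNA-seq did not; the ratio was 0.154 in old and 0.0684 in young brain, a log2 difference of 1.16 ± 0.18 (SE, edgeR adjusted p = 0.027).

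Of those 6 transcripts, 5 shared a second-column value of 141. This value occurs 14 times among the comparable transcripts, and 12 of the 14 are among the 96. The other two, ENSRNOT00000032879 and ENSRNOT00000003787, had ratios of 1.74 and 2.23 in old liver and 1.91 and 2.54 in old brain. The 12 varied little against each other: the share of each in their RNA-seq sum differed over the 12 RNA-seq libraries by 1.09 to 1.32 times between the lowest and the highest library. Such transcripts may share reads, and the counting rule is not given in the sources used here, so the 12 are not independent measurements. Their ratios ran from 0.0858 to 0.213 in old liver, from 0.0456 to 0.133 in young liver, from 0.0304 to 0.198 in old brain and from 0.0176 to 0.108 in young brain. Summed footprints of the 12 were 168, 166 and 203 CPM in old brains and 116, 104 and 104 in young brains, without overlap, and summed RNA-seq was 1854, 1686 and 1904 CPM in old brains and 1985, 1921 and 1773 in young, with overlap. For 10 of the 12 every old brain lay over every young brain in footprints, against 9.17% of all tested. The young footprints were among the values that chose the 12, so this is a description. In liver the summed footprints were 58.4, 87.7 and 155 CPM in old animals and 59.9, 80.9 and 80.1 in young, which overlap. Mean footprints were higher in old liver for 12 of the 12, but for 0 of them did every old liver lie over every young one. Summed RNA-seq in liver was 844, 778 and 861 CPM in old animals and 905, 1064 and 917 in young, without overlap. These liver values share the young libraries that chose the 12 and are a description.

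Low-ratio transcripts had small values in the second column. Their median was 358 (range 96 to 1958), against 572 for the comparable transcripts, and 43.8% of the 96 had a value of at most 300 (42 transcripts), against 20.5% of the comparable ones. The 42 with at most 300 had lower median ratios than the 54 above it, in both organs and at both ages. Their median ratio was 0.104 in old liver, 0.0593 in young liver, 0.0944 in old brain and 0.0518 in young brain. For the 54 it was 0.218 in old liver, 0.135 in young liver, 0.153 in old brain and 0.145 in young brain. At or under 0.2 in old liver were 36 of the 42 and 24 of the 54, and in old brain 38 of the 42 and 44 of the 54. The median log2 of old over young RNA-seq in liver was -0.18 for the 42 and -0.45 for the 54. In footprints of liver it was 0.49 for the 42 and 0.20 for the 54, and in footprints of brain 0.57 and 0.16. These footprint medians cover the 39 of the 42 and the 53 of the 54 with footprints at both ages. Whether the second column bears on the ratio was not tested. As a description, 35 of the 96 shared their value with another of the 96. For 84, another of the 96 had RNA-seq in near-constant proportion to theirs, the 12 proportions differing by under 1.5 times. The closest match was taken for each, and the shares among the comparable transcripts are not given here. Whether reads are shared was not tested, and the 96 are not taken as independent of each other.

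**Figure D5:**
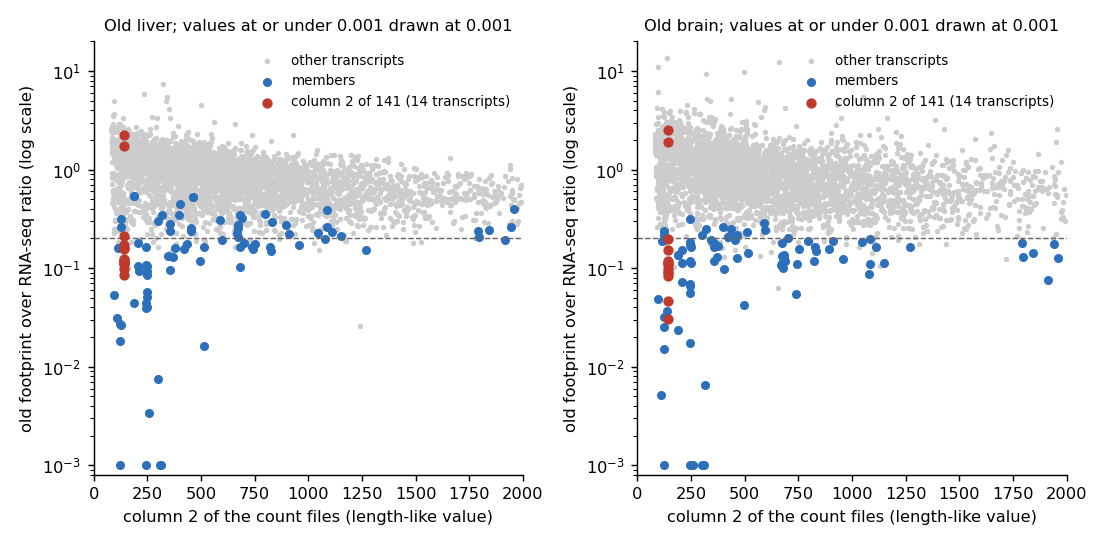
Footprint over RNA-seq ratio in old liver and old brain (vertical axis, log scale, no units) against the length-like second column of the count files (horizontal axis) for the 96 low-ratio transcripts in blue and the other comparable transcripts in grey; the dashed line marks 0.2 and the 14 transcripts at 141 are red. Low-ratio transcripts crowd at small values of the second column, with a median of 358, and 2 of the red points lie above a ratio of 1.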

How the data were processed

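The authors deposited one file per library with raw counts per transcript, not normalised, and a second column of another, length-like kind (values from -17 to 8007, missing for 3097 transcripts) that no header defines. RNA-seq was made from total RNA with a stranded kit and ribosome profiling from RNase I footprints of pelleted ribosomes, per the labels' protocols. TopHat2 2.0.10, Bowtie 1.0.0.0 and DESeq appear in the submitters' processing notes, with rn4 as the rat genome build. Their roles, the annotation, the rule for counting reads and whether both assays were counted over the same region of a transcript: not given in the sources used here. None of the 22938 identifiers matched the gene table at hand (0 matches), so the planned gene lists and cell type markers could not be run, the labelled organs were not checked against marker genes, and no sequences are shown.

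CPM, ratios and the rule were computed from the counts as described with the results. Tests used edgeR 4.0.16 in R 4.3.3 (two-sided quasi-likelihood F test, robust fit, TMM factors, Benjamini-Hochberg adjustment over all transcripts tested, threshold 0.05). The SE of a fitted log2 was its absolute value over the square root of its F statistic, and it is not a spread over animals. Low counts were removed with filterByExpr, set to a count of 10 and a total of 15. The 2-fold test was glmTreat with a log2 limit of 1. The code was tested on simulated data. Alternatives were DESeq2 1.42.0, other scalings and filters, each animal left out in turn and a block.

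Liver and brain libraries of both assays carry the same animal code in their titles, so replicate numbers of one age pair libraries of the same animal. Deviations of the assays from their group means correlated at 0.49 to 0.793 in liver and 0.0431 to 0.432 in brain. The main tests did not use this pairing, and the fits with the animal as a block did. Replicates are separate animals, and without molecular identifiers PCR copies count as separate reads.

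The transcripts and the lists were chosen with earlier results of these data known. Transcripts named are those with the lowest and highest young values, the highest old ratio, the largest called differences and those beside the limit, at most 2 each, since identifiers carry no names. Of the 4 transcripts with the lowest young ratio of 0, the 2 with more RNA-seq counts were taken.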

Additional observations from a re-analysis of the deposited data

Results flagged for a closer look

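Old liver and old brain differed in the ratio of 26 low-ratio transcripts, higher in liver, and of 1, lower in liver (edgeR interaction of organ and assay, adjusted p under 0.05). Over all 14938 transcripts tested 4.49% were higher and 5.68% lower. The 26 became 7, 13 and 13 on leaving out old animals 1, 2 and 3, in fits with fewer animals and less power. The 1 was ENSRNOT00000051951, with a log2 difference of -3.05. Among the 26, ENSRNOT00000042722 had a log2 difference of 3.18, on 7, 16 and 28 footprint counts in the old livers and 6, 2 and 1 in the old brains. ENSRNOT00000037432 had 5 footprint counts over the old livers and 0 over the old brains, and no fold is given for it.

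The ratio in brain was higher in old animals for 6 low-ratio transcripts (edgeR interaction of age and assay, adjusted p under 0.05), against 0.075% of all 14664 tested. The young brain ratios of this comparison also selected the transcripts, so the count is a description and supports nothing. It was 0 in the fits, of less power, that left out any one of old animals 1 and 3 and young animals 2 and 3, and 0 with plain library totals. ENSRNOT00000012258 had the largest difference of these, a log2 of 1.82, and ENSRNOT00000041479 the next, a log2 of 1.16. The difference between brain and liver in this effect of age was not tested.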

How the results depend on the processing

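Over 283 pairs of a count of transcripts and a setting, 236 stayed within 1.5 times of the count reported and 47 did not; over 282 pairs of a single fitted value and a setting, 259 kept their direction and side of the threshold, 23 no longer passed it and 0 reversed. The cause of each change was not tested.

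A ratio limit of 0.15 gave 56 low-ratio transcripts, of which 36 stayed at or under it in old liver, 45 in old brain and 31 in both. A limit of 0.25 gave 151, with 86 at or under it in old liver, 129 in old brain and 79 in both. An RNA-seq minimum of 50 CPM gave 51, with 30, 43 and 28. Leaving out each animal in turn gave 86 to 103 transcripts by the rule, and 57 to 60 in old liver, 75 to 85 in old brain and 49 to 55 in both at or under 0.2. The counts of falls below RNA-seq were 93 to 96 in old brain and 89 to 91 in old liver, with 0 higher in each.

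Leaving out 1 animal gave 7 to 13 transcripts with a higher and 0 to 2 with a lower ratio in old liver than old brain; median-ratio factors gave 2 lower, a minimum count of 50 gave 2 and DESeq2 gave 3. For age by assay in brain, 1 animal left out gave 0 to 3 higher, median-ratio factors 2 and plain library totals 0. In liver plain library totals gave 5 higher, DESeq2 15 and 1 animal left out 0 to 2. For age in RNA-seq of liver, plain totals gave 1 lower, no filter 3, DESeq2 30 and 1 animal left out 0 to 10. In RNA-seq of brain, DESeq2 gave 1 higher and 1 lower, and 1 animal left out gave 0 to 3 higher. In footprints of liver, DESeq2 gave 4 higher and 1 animal left out 0 to 2; in footprints of brain 1 animal left out gave 0 to 8 higher. The other counts of age comparisons stayed at 0 with any animal left out. Calls over all transcripts also moved with the setting, as given above for liver with DESeq2 and without young animal 1. For most other settings the calls over all transcripts are not given here. These counts alone therefore do not show whether a change is particular to the low-ratio transcripts.

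With the animal as a replicate block, 21 transcripts had a higher liver ratio in old animals (2.66% of all tested). Between the ages a shared replicate number joins unrelated animals; with that number as a block, 10 were lower in RNA-seq of liver (0.451% of all tested), 1 was higher in RNA-seq of brain (1.19%) and 7 were higher in footprints of brain (1.51%). The block moved no other count by over 1.5 times. There were 3 animals a group, and the transcripts with the lowest ratios had few footprint counts. Whether small differences in those ratios could be detected at this depth was not tested.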
